A study of Arabidopsis thaliana with 251 samples.

Results

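MSI1-ZF is a fusion of the Arabidopsis chromatin protein MSI1 to an artificial zinc finger (zinc finger 108, ZF) that was designed to bind the promoter of FWA, a homeobox gene whose expression delays flowering. MSI1-ZF plants were compared with fwa plants for acetylation of histone H3 at lysine 9 (H3K9ac) and at lysine 14 (H3K14ac). The comparison holds 8 ChIP-seq peak lists, 2 MSI1-ZF and 2 fwa libraries for each mark, of the 251 samples of the series, 136 of which had a processed file. A gene counted as marked in a library when a called peak covered at least 150 bp of it, or all of a shorter gene. A mark was lost at a gene when both fwa libraries and neither MSI1-ZF library had the peak, and gained in the reverse case, over all 37899 genes of the 5 nuclear chromosomes of the TAIR10 genome.

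Both groups were leaf tissue of Columbia-0 plants at 4 to 5 weeks, and both carried the fwa epiallele, in which the FWA promoter lacks DNA methylation and FWA is expressed. MSI1-ZF plants were a representative T2 line, chosen for early flowering, that carried the fusion transgene. fwa plants carried no transgene. The promoter that drives MSI1-ZF was not given in the labels used here, and no source says whether the 2 libraries of a group came from separate plants, so that p-values measure only the spread between these libraries. HDA6-ZF, a fusion to a histone deacetylase that shares the fwa libraries, and EYFP-ZF, a fusion to a fluorescent protein with fwa libraries of its own, were used where a difference had to be set against another fusion.

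Acetylation of H3K9 and H3K14 sits on the nucleosomes at the start of expressed genes. Acetyltransferases write it and histone deacetylases such as HDA6 and HDA19 remove it. MSI1 is a WD40-repeat histone-binding protein that is a subunit of several complexes: Polycomb repressive complex 2, which methylates H3 at lysine 27 (H3K27me3), the chromatin assembly factor CAF-1, and histone deacetylase complexes. The question was where in the genome acetylation differed when MSI1 was brought to the sites that ZF binds.

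The sites taken as bound by ZF came from the deposited FLAG ChIP-seq list of another ZF fusion, TRB1-ZF, in floral tissue (1 library, no replicate). That list does not tell regions bound through ZF from regions bound through TRB1. Of its 19986 regions, 6091 had a first listed summit of at least 4-fold enrichment, and 4575 genes started within 1000 bp of the middle of such a site. The 8 letters most over-represented around the 6091 summits were AAGATGTA (a script compared all 8-letter words, both strands): they lay in 619 of 6091 summit windows of 100 bp (10.2%), against 172 of 37899 windows of the same length at gene starts (0.454%). A different word, AACCCTAA at rank 6, lay in 402 of the 6091 windows (6.60%), against 825 of 37899 at gene starts (2.18%). Which part of the fusion binds at these words was not tested. Copies of AAGATGTA under the ZF region of the FWA promoter and at genes that lost H3K9ac are printed here to show its surroundings. Sequences are from RefSeq TAIR10.1, 5′ to 3′, and capitals mark the 8 letters.
FWA, chr4:13038247-13038276, minus strand: ttctcgacggaAAGATGTAtgggcttcggc
FWA, chr4:13038292-13038321, minus strand: ttctcgacggaAAGATGTAtgggcttcgat
NAS3, chr1:2984423-2984452, minus strand: ttacactaagcAAGATGTAcagtaattgat
AT1G14210, chr1:4857071-4857100, minus strand: cgaatgcaatgAAGATGTAaaggggaataa
AT1G46552, chr1:17252552-17252581, minus strand: tgtattagactAAGATGTAtgtgaatctta
AT3G13404 and AT3G13403 (1 shared site), chr3:4359747-4359776, minus strand: gtgtctatgtgAAGATGTAtgtgtatatat
SULTR3;1, chr3:19255303-19255332, plus strand: aataaaaataaAAGATGTAtaacgcttaca
AT5G24215, chr5:8221224-8221253, plus strand: aaatctaaccgAAGATGTAtagtctaaaaa
The FWA copies lay under a summit of 11.7-fold at position 13038292. The summit listed first for that region had 2.44-fold, so the region is not among the 6091 sites. FWA therefore counted as a gene away from a site, with the nearest site of the 6091 at 4199 bp from its start. A match is a description of the letters and not a measured contact: 6 of the 59 ZF sites near genes that lost H3K9ac held them (10.2%), against 148 of 2087 sites near genes that kept it (7.09%). For H3K14ac these numbers were 13 of 137 sites (9.49%) and 151 of 2201 sites (6.86%). Near genes that lost both marks 1 of 22 sites held the letters (4.55%).

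FWA itself kept peaks of both marks in all 4 libraries of each mark. The values are peak folds, the enrichment at the summit that the peak caller wrote for each library. For H3K9ac the peak over the FWA start had folds of 3.86 and 3.37 in MSI1-ZF, against 3.91 and 4.22 in fwa, and covered 824 and 672 bp in MSI1-ZF, against 750 and 783 bp in fwa. Within their own lists these folds were at percentiles 49.4 and 37.9 in MSI1-ZF and at percentiles 59.3 and 68.5 in fwa. Both MSI1-ZF values were lower than both fwa values, but the difference did not pass the test (log2 difference after quantile normalization −0.34 ± 0.13 SE, adjusted p = 0.332, limma with Benjamini-Hochberg adjustment). For H3K14ac the folds were 2.16 and 1.64 in MSI1-ZF, against 2.00 and 2.45 in fwa, with overlapping groups (log2 difference −0.17 ± 0.17 SE, limma adjusted p = 0.820). The H3K14ac peak was narrower in MSI1-ZF, with 301 and 160 bp, against 389 and 414 bp in fwa. In HDA6-ZF the FWA folds were 1.72 and 2.01 for H3K9ac, and no H3K14ac peak was called in either library. H3K27me3, measured in other libraries of the same lines, had a peak over FWA in both MSI1-ZF libraries and in neither fwa library.

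The lists were of like size, and read depth is unknown because no file used here holds read counts. H3K9ac had 18967 and 19052 peaks in MSI1-ZF, against 18514 and 18852 peaks in fwa, and H3K14ac had 22102 and 23547 peaks in MSI1-ZF, against 23387 and 22906 peaks in fwa. The mean difference was 326.5 peaks for H3K9ac (exact two-sided permutation test, p = 0.33, the smallest p that 2 against 2 libraries allow) and −322 peaks for H3K14ac (exact permutation p = 1.0). H3K9ac peaks were wider in MSI1-ZF (median 851 and 840 bp) than in fwa (768 and 778 bp), whereas H3K14ac peaks were narrower in MSI1-ZF (592 and 573 bp) than in fwa (628 and 635 bp). Of 14 photosynthesis genes, which mark leaf mesophyll, 13 had H3K9ac in both MSI1-ZF libraries and 11 in both fwa libraries, and for H3K14ac the numbers were 11 and 12. Of 8 seed and 3 flower marker genes none had H3K9ac in any of the 4 libraries. H3K14ac was found in at least 1 library at 2 of the 3 flower genes, 1 of which had it in both fwa libraries. It was found in at least 1 library at 1 of the 8 seed genes, and at none in both libraries of a group. Of 4 guard cell marker genes 1 had H3K9ac in both MSI1-ZF libraries and 2 in both fwa libraries. Of 2 vascular marker genes 1 had H3K9ac in both MSI1-ZF libraries and 2 in both fwa libraries. The mark was lost at 1 of these 2, and at 0.623% of all genes. Of 4 root marker genes 2 had both marks in all libraries. The part of cell types in the results was not tested.

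H3K9ac was lost at 236 genes in MSI1-ZF (0.623% of all genes, 1.32% of the 17816 genes marked in both fwa libraries) and gained at 470 genes (1.24% of all genes, 2.46% of the 19095 genes unmarked in both fwa libraries). H3K14ac was lost at 569 genes (1.5% of all genes, 2.95% of the 19282 marked) and gained at 248 genes (0.654% of all genes, 1.47% of the 16835 unmarked). Gains outnumbered losses for H3K9ac and losses outnumbered gains for H3K14ac. The covered length of whole lists moved the same way: H3K9ac peaks covered 18.3 and 18.02 Mb in MSI1-ZF, against 16.1 and 16.8 Mb in fwa, with median folds of 3.89 and 3.93 in MSI1-ZF, against 3.55 and 3.49 in fwa. H3K14ac peaks covered 13.7 and 14.2 Mb in MSI1-ZF, against 15.4 and 15.3 Mb in fwa, with median folds of 2.73 and 2.47 in MSI1-ZF, against 2.69 and 2.79 in fwa. The part of these shifts in the counts was not tested. The libraries of 1 group disagreed at more genes than these: for H3K9ac 840 genes had a peak in only 1 MSI1-ZF library and 988 in only 1 fwa library, and for H3K14ac the numbers were 1997 genes in MSI1-ZF and 1782 genes in fwa. HDA6-ZF lost H3K9ac at 203 genes (0.536%) and H3K14ac at 525 genes (1.39%), and gained them at 162 (0.427%) and 115 genes (0.303%). EYFP-ZF, against its own fwa libraries, lost H3K9ac at 61 genes (0.161%) and H3K14ac at 225 genes (0.594%), and gained them at 141 (0.372%) and 142 genes (0.375%).

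**Figure D1:**
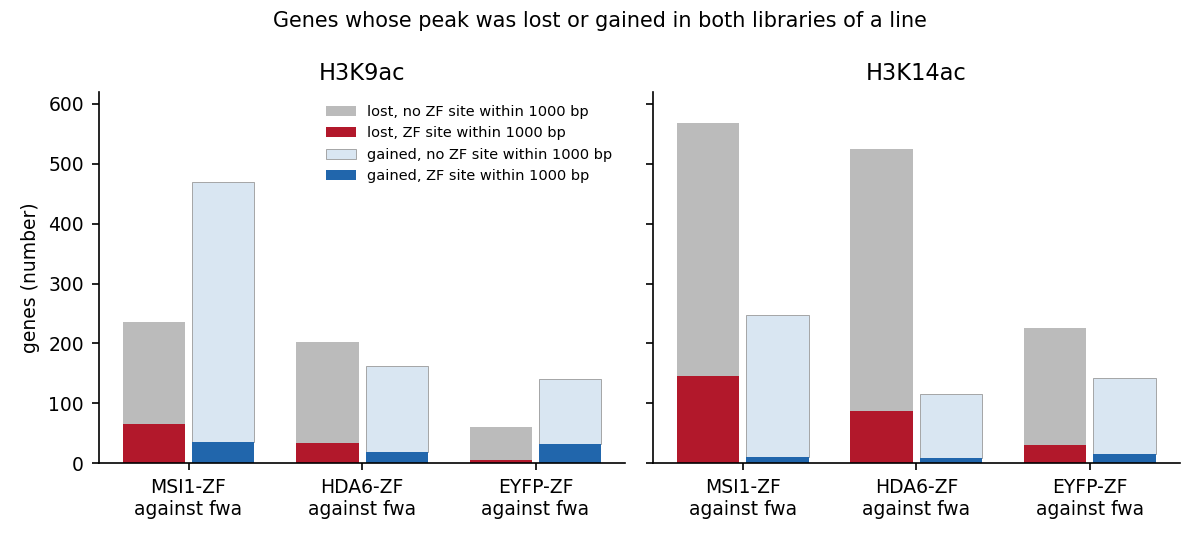
Number of genes (vertical axis) that lost (left bar) or gained (right bar) an H3K9ac or H3K14ac peak in both libraries of MSI1-ZF, HDA6-ZF and EYFP-ZF against fwa; the dark lower part of each bar is the genes that start within 1000 bp of a ZF site. MSI1-ZF has the tallest bars, 470 genes that gained H3K9ac and 569 that lost H3K14ac, and the dark part is larger among its losses (65 and 145 genes) than among its gains (36 and 11 genes).

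The peaks that were lost were weak and narrow ones. The median lost H3K9ac gene had a fold at percentile 15.2 of the fwa lists and 349 covered bases, and the median lost H3K14ac gene was at percentile 20.7 with 299 covered bases. By quartile of the fold in fwa, 197, 21, 13 and 5 genes lost H3K9ac from the lowest quartile upwards, and 493, 36, 25 and 15 genes lost H3K14ac. In MSI1-ZF 214 of the 236 H3K9ac genes (90.7%) and 484 of the 569 H3K14ac genes (85.1%) had no peak base left at all. As peak regions, 398 of 16958 H3K9ac regions found in both fwa libraries were lost, and 198 of the 398 lay at a gene start (49.7%), against 90.3% of all such regions. For H3K14ac 1021 of 19877 regions were lost, of which 459 lay at a gene start (45.0%), against 84.2% of all. Losses thus fell in gene bodies and between genes more often than the mark as a whole. The same held for gains: 50.3% of gained H3K9ac regions and 32.2% of gained H3K14ac regions lay at a gene start. Across regions in both MSI1-ZF libraries these shares were 89.5% and 84.4%. Gained peaks were weak and narrow as well. The median gained H3K9ac gene was at percentile 14.1 of the MSI1-ZF lists with 311.5 covered bases. For H3K14ac these values were 20.1 and 273.75.

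Genes that start near a ZF site lost acetylation at a higher rate than other genes in MSI1-ZF. H3K9ac was lost at 65 of 2523 marked genes within 1000 bp of a ZF site (2.58%), against 171 of 15293 farther away (1.12%). H3K14ac was lost at 145 of 2706 marked genes near a site (5.36%), against 424 of 16576 farther away (2.56%). In HDA6-ZF these shares were 1.35% near and 1.11% away for H3K9ac, and 3.22% near and 2.64% away for H3K14ac. In EYFP-ZF they were 0.247% near and 0.370% away for H3K9ac, and 1.13% near and 1.15% away for H3K14ac.

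Taken library by library, the share of fwa-marked genes with no H3K9ac peak was higher near ZF sites than away from them by 1.92 and 1.99 percentage points in the MSI1-ZF libraries, against 0.343 and 0.267 in HDA6-ZF and −0.156 and −0.0260 in EYFP-ZF. For H3K14ac the differences were 3.16 and 2.65 points in MSI1-ZF, against 0.989 and 0.507 in HDA6-ZF and −0.106 and −0.0739 in EYFP-ZF. The MSI1-ZF libraries lay above those of both other fusions for both marks without overlap. In the exact two-sided permutation test each of these 4 comparisons gave p = 0.33, the smallest p that 2 against 2 libraries allow, so that none can pass 0.05.

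The share fell with distance. H3K9ac was lost at 2.84% of marked genes within 250 bp of a ZF site, 2.79% at 250 to 500 bp, 2.13% at 500 to 1000 bp, 1.56% at 1000 to 2000 bp, 1.25% at 2000 to 5000 bp and 0.990% beyond. The H3K14ac shares over the same bins were 5.36%, 6.10%, 4.76%, 3.82%, 2.45% and 2.39%. Gains ran the other way: H3K9ac was gained at 1.02% of unmarked genes within 250 bp and at 2.39% beyond 5000 bp, and H3K14ac at 0.815% and 1.52%. Which side of the start the site lay on went with the share as well. With the site at or downstream of the start, 49 of 1467 marked genes lost H3K9ac (3.34%), against 16 of 1056 genes with the site upstream (1.52%), and H3K14ac was lost at 108 of 1578 (6.84%), against 37 of 1128 (3.28%).

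**Figure D2:**
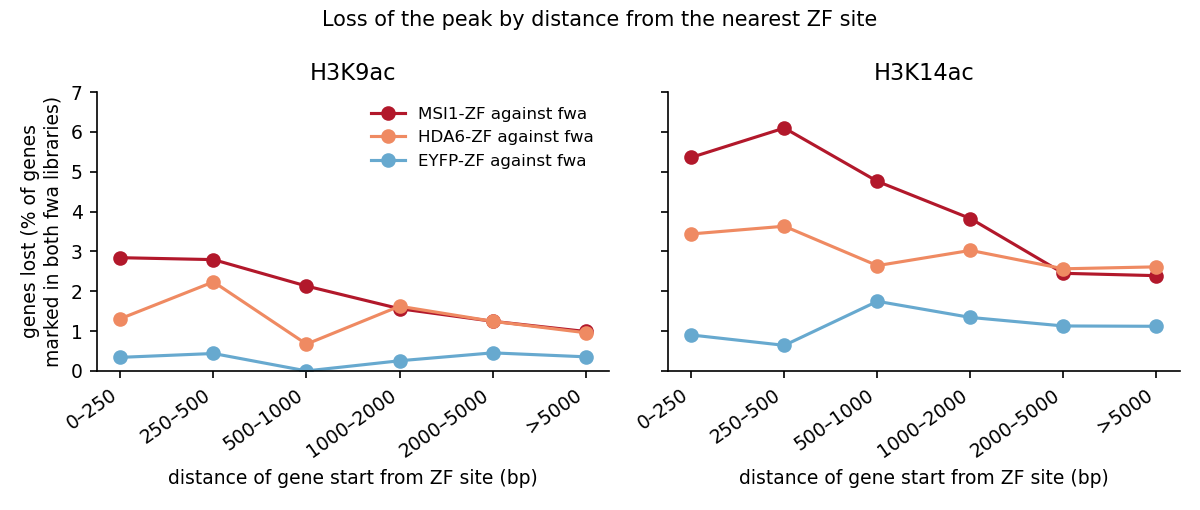
Share of genes marked in both fwa libraries that lost the peak (vertical axis, percent) by distance of the gene start from the nearest ZF site (horizontal axis, bp) for MSI1-ZF, HDA6-ZF and EYFP-ZF against fwa. The MSI1-ZF line runs highest within 1000 bp for both marks, at 2.13% to 2.84% for H3K9ac and 4.76% to 6.10% for H3K14ac, and is close to the HDA6-ZF line from 1000 bp onwards for H3K9ac and from 2000 bp onwards for H3K14ac.

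The share lost was higher near than away within each quartile of the fwa fold, for both marks. Above the lowest quartile these shares rest on few genes. From quartile 2 upwards 11, 5 and 2 near genes lost H3K9ac, and 11, 8 and 3 lost H3K14ac. In the lowest quartile 7.51% of genes near a ZF site lost H3K9ac, against 3.92% of those away, and 18.3% near lost H3K14ac, against 8.91% away. In the highest quartile the shares were 0.325% near (2 of 615 genes) and 0.0781% away (3 of 3839) for H3K9ac. For H3K14ac they were 0.445% near (3 of 674) and 0.289% away (12 of 4147).

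**Figure D3:**
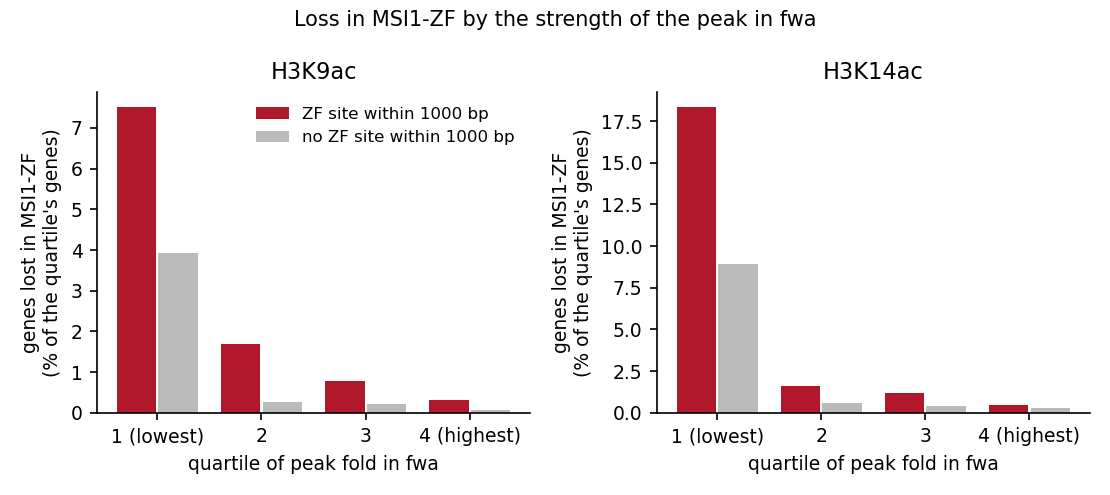
Share of marked genes that lost the peak in MSI1-ZF (vertical axis, percent, scales differ between panels) by quartile of the peak fold in fwa, for genes within 1000 bp of a ZF site (left bar) and other genes (right bar). Nearly all losses fall in the lowest quartile, and the left bar is the taller one in every quartile, for example 7.51% against 3.92% for H3K9ac in quartile 1. The left bars of quartile 4 rest on 2 genes for H3K9ac and 3 genes for H3K14ac.

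Both marks were lost at 70 genes, which is 29.7% of the genes that lost H3K9ac and 12.3% of those that lost H3K14ac. A further 166 genes lost H3K9ac only and 499 lost H3K14ac only, 6 of which gained H3K9ac, and no gene lost H3K9ac while gaining H3K14ac. Of the 70 genes 24 started within 1000 bp of a ZF site (34.3%), against 41 of the 166 (24.7%), 121 of the 499 (24.2%) and 12.1% of all genes. For H3K9ac their fwa peaks were at a median percentile of 17.4 and covered a median of 409.5 bp, against 14.4 and 339.2 bp at the 166 genes. For H3K14ac the values were 30.3 and 378 bp, against 19.9 and 288.5 bp at the 499 genes.

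Genes named from these 70 are those with the highest fwa percentile over both marks, and no MSI1-ZF library had a peak of either mark that covered 150 bp of them. AT1G51370, an F-box protein gene with a ZF site 272 bp downstream of its start, had H3K9ac folds of 4.02 and 4.37 and H3K14ac folds of 3.85 and 3.25 in fwa. H3K9ac peaks still covered 60 and 58 bp of AT1G51370 in MSI1-ZF, against 286 and 348 bp in fwa. KAO2, which encodes an ent-kaurenoic acid oxidase of gibberellin synthesis, had H3K9ac folds of 3.71 and 4.23 and H3K14ac folds of 3.42 and 4.06 in fwa, with its nearest ZF site 12446 bp upstream. An H3K14ac peak covered 138 bp of KAO2 in MSI1-ZF replicate 2 and none in replicate 1, against 533 and 1075 bp in fwa. CPK33, a calcium-dependent protein kinase gene, had H3K9ac folds of 2.48 and 3.69 and H3K14ac folds of 3.2 and 3.77 in fwa over a start that it shares with the antisense lncRNA gene AT1G07667, with a ZF site at 442 bp. Of the 3 genes CPK33 had no covered base of either mark in either MSI1-ZF library.

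PSK5, the precursor gene of a phytosulfokine growth peptide (ZF site at 293 bp), had H3K9ac folds of 4.06 and 3.54 and H3K14ac folds of 2.38 and 3.06 in fwa. MCC1, which encodes a GCN5-related acetyltransferase of meiotic crossover control (ZF site at 170 bp), had H3K9ac folds of 3.53 and 2.9 and H3K14ac folds of 3.3 and 3.08 in fwa. The peaks over MCC1 also covered the divergent lncRNA gene AT3G01225, and the 2 genes cannot be told apart. CSLD2, a cellulose-synthase-like gene (ZF site at 690 bp), had H3K9ac folds of 3.2 and 3.37 and H3K14ac folds of 2.54 and 2.79 in fwa. CSLD2 and MCC1 had no H3K9ac peak in either HDA6-ZF library, whereas PSK5 (3.51 and 2.02), KAO2 (2.70 and 3.61) and CPK33 (2.49 and 3.07) kept theirs there. Of all 70 genes 39 kept H3K9ac in both HDA6-ZF libraries and 36 kept H3K14ac, and in both EYFP-ZF libraries 48 had H3K9ac and 53 had H3K14ac. In the fwa libraries of the EYFP-ZF set 39 of the 70 had H3K9ac in both and 15 in neither, and 55 had H3K14ac in both and 5 in neither. Of all 236 genes that lost H3K9ac 106 had the peak in both of those fwa libraries and 75 in neither, and of the 569 that lost H3K14ac 367 had it in both and 70 in neither. A share of the lost peaks was thus not called in other fwa libraries either.

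Where 1 mark was lost, the other one was often weaker as well. Of the 166 genes that lost H3K9ac only, 47 had H3K14ac peaks in all 4 libraries, and 44 of these 47 had a negative log2 fold difference (median −0.37), against 50.05% of all 17943 genes tested (median −0.000258). Of the 499 genes that lost H3K14ac only, 274 had no H3K9ac peak over 150 bp in any library, and of the 116 with all 4 peaks 78 were below 0 (median −0.10), against 49.5% of all 17386 genes tested (median 0.00239). AT1G14210, a ribonuclease T2 family gene whose ZF window is printed above, shows the first case: it had no H3K9ac peak in MSI1-ZF, against folds of 2.96 and 2.94 in fwa, and H3K14ac folds of 1.67 and 1.74 in MSI1-ZF, against 2.46 and 2.67 in fwa (log2 difference −0.52 ± 0.15 SE, limma adjusted p = 0.307). NAS3, a nicotianamine synthase gene of metal transport with a ZF window above, lost both marks: its fwa folds were 1.52 and 1.93 for H3K9ac and 1.51 and 1.78 for H3K14ac. SULTR3;1, a sulfate transporter gene, lost H3K9ac, with 1.92 and 2.16 in fwa. The peaks at NAS3 and SULTR3;1 were weak ones.

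The strongest single-mark losses included many short genes for structural RNAs. The 10 genes with the highest fwa percentile for lost H3K9ac held 4 tRNA genes and the U2.3 spliceosomal RNA gene. U2.3 had folds of 8.24 and 7.11 in fwa, where peaks covered all 195 bp of it in both libraries. In MSI1-ZF 100 bp were covered in replicate 1 and none in replicate 2. U2.3 counted as lost in EYFP-ZF too, with 119 and 123 bp covered, against 195 and 195 bp in its own fwa libraries. HDA6-ZF kept the peak, with folds of 6.39 and 6.59. A gene shorter than 150 bp counts as marked only when a peak covers all of it, and 6 genes that lost H3K9ac and 27 that lost H3K14ac were that short. Of the 4 tRNA genes AT1G75740 alone had no covered base in MSI1-ZF. H3K9ac peaks there still covered 61 and 38 bp of AT5G41265, against 72 and 72 bp in fwa. They covered 51 and 59 bp of AT4G32265 and 65 and 23 bp of AT3G28695, against 73 and 73 bp of each in fwa. SCPL13, a serine carboxypeptidase-like gene with a ZF site 5 bp upstream of its start, was another of the 10. It had H3K9ac folds of 5.65 and 5.02 in fwa and no H3K9ac peak in MSI1-ZF, and an H3K14ac fold of 1.57 in 1 MSI1-ZF library, against 3.50 and 3.12 in fwa. In the other MSI1-ZF library an H3K14ac peak covered 147 bp of SCPL13, which is under the 150 bp asked for. AT1G62900, a methyltransferase family gene with a ZF site at 60 bp, counted among the H3K14ac losses by the overlap rule, with folds of 4.23 and 4.85 in fwa, where peaks covered 252 and 258 bp. Peaks covered 105 and 98 bp of AT1G62900 in MSI1-ZF, so that a peak was still there in both libraries.

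Among genes with a peak in all 4 libraries, the fold itself was tested. H3K9ac was lower in MSI1-ZF at 26 of 17386 genes (0.15%) and higher at 16 (0.092%), and H3K14ac was lower at 11 of 17943 genes (0.0613%) and higher at 1 (0.00557%), at an adjusted p under 0.05 (limma, Benjamini-Hochberg). Of the 26 genes with lower H3K9ac 14 started within 1000 bp of a ZF site, of the 16 with higher H3K9ac none did, and 2409 of the 17386 genes tested did. Of the 11 genes with lower H3K14ac 4 did, and 2448 of the 17943 genes tested. Overlapping genes can share 1 peak: the 26 genes stand for 24 distinct peaks (12 near a site), the 16 for 16 and the 11 for 8 (2 near a site). Over all tested genes near a site the median log2 difference was −0.0518 for H3K9ac and −0.0223 for H3K14ac, against 0.00895 and 0.00183 for the other genes.

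AT5G60460, which encodes the Sec61-beta subunit of the protein translocation channel and has a ZF site at 427 bp, had H3K9ac folds of 2.32 and 1.92 in MSI1-ZF, against 5.88 and 6.30 in fwa. Its log2 difference was −1.65 ± 0.14 SE (limma adjusted p = 0.0149), and its H3K14ac folds were 2.54 and 3.10 in MSI1-ZF, against 3.59 and 4.38 in fwa (adjusted p = 0.534, limma). H3K9ac thus fell to well under its fwa level at this gene while the lower H3K14ac values did not pass the test. AT1G48960, an adenine nucleotide hydrolase-like gene with a ZF site at 181 bp, had H3K9ac folds of 2.41 and 2.19 in MSI1-ZF, against 5.00 and 5.72 in fwa (log2 −1.36 ± 0.13 SE, limma adjusted p = 0.0227). The same peak covers the antisense lncRNA gene AT1G07513, so that these are 1 measurement and not 2.

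UMAMIT13, a gene of the amino acid transporter family with a ZF site at 209 bp, differed in all 3 marks measured in this line. H3K9ac folds were 2.07 and 2.42 in MSI1-ZF, against 4.83 and 4.67 in fwa (log2 −1.23 ± 0.13 SE, limma adjusted p = 0.0286). H3K14ac had no peak in either MSI1-ZF library, against folds of 3.4 and 3.39 in fwa. H3K27me3 had a peak in both MSI1-ZF libraries and in neither fwa library. Lower acetylation was not particular to MSI1-ZF: HDA6-ZF had H3K9ac folds of 3.01 and 2.69 and H3K14ac folds of 2.31 and 2.03, also below the shared fwa libraries. EYFP-ZF kept both acetylation peaks over UMAMIT13, with H3K9ac folds of 5.97 and 4.5, against 5.33 and 6.37 in its fwa libraries, and H3K14ac folds of 3.46 and 3.57, against 3.68 and 3.79.

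AT2G26470 (ZF site at 299 bp) had H3K9ac folds of 1.81 and 1.82 in MSI1-ZF, against 4.20 and 4.21 in fwa (log2 −1.34 ± 0.13 SE, limma adjusted p = 0.0225), and H3K14ac folds of 2.62 and 2.04 in MSI1-ZF, against 4.29 and 4.73 in fwa (limma adjusted p = 0.101). Lower H3K9ac was not limited to ZF sites. AT5G10965, an lncRNA gene 19740 bp from the nearest site, had the largest difference of the 26, with folds of 2.08 and 2.08 in MSI1-ZF, against 7.03 and 7.28 in fwa (log2 −1.89 ± 0.12 SE, limma adjusted p = 0.00653). This gene also varied in lines without MSI1-ZF: its folds were 1.81 and 1.72 in HDA6-ZF, and 2.63 and 7.82 in EYFP-ZF, against 2.53 and 6.59 in the fwa libraries of that set. ACT2, an actin gene used as a constitutive reference and 7912 bp from a site, was also among them, with H3K9ac folds of 2.78 and 3.02 in MSI1-ZF, against 5.75 and 5.29 in fwa (log2 −1.08 ± 0.12 SE, limma adjusted p = 0.0297). H3K14ac over ACT2 had folds of 2.24 and 2.51 in MSI1-ZF, against 2.56 and 2.67 in fwa (adjusted p = 0.963, limma).

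None of the 16 genes with higher H3K9ac started within 1000 bp of a ZF site, although CRK29 was just outside, with a site 1015 bp upstream. In the window around the gene start 3 of 22 such genes were near a site, and with the replicate block 2 of 23. AT4G19400, a profilin family gene, had folds of 8.67 and 8.01 in MSI1-ZF, against 2.43 and 2.50 in fwa (log2 1.64 ± 0.11 SE, limma adjusted p = 0.00897). ENO1, which encodes a plastid enolase, had folds of 5.61 and 5.02 in MSI1-ZF, against 1.95 and 1.76 in fwa (log2 1.39 ± 0.14 SE, limma adjusted p = 0.0227). CRK29, a receptor-like kinase gene, had 4.70 and 5.17 in MSI1-ZF, against 1.65 and 1.61 in fwa (log2 1.5 ± 0.13 SE, limma adjusted p = 0.0186). None of the 3 differed by the test in H3K14ac. ENO1 turns round when any overlapping base counts in place of 150 bp (log2 −0.099), and under that reading 6 of the 16 higher genes and 18 of the 26 lower ones remained past the threshold. CRK29 was not among them (log2 1.08, limma adjusted p = 0.0881).

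**Figure D4:**
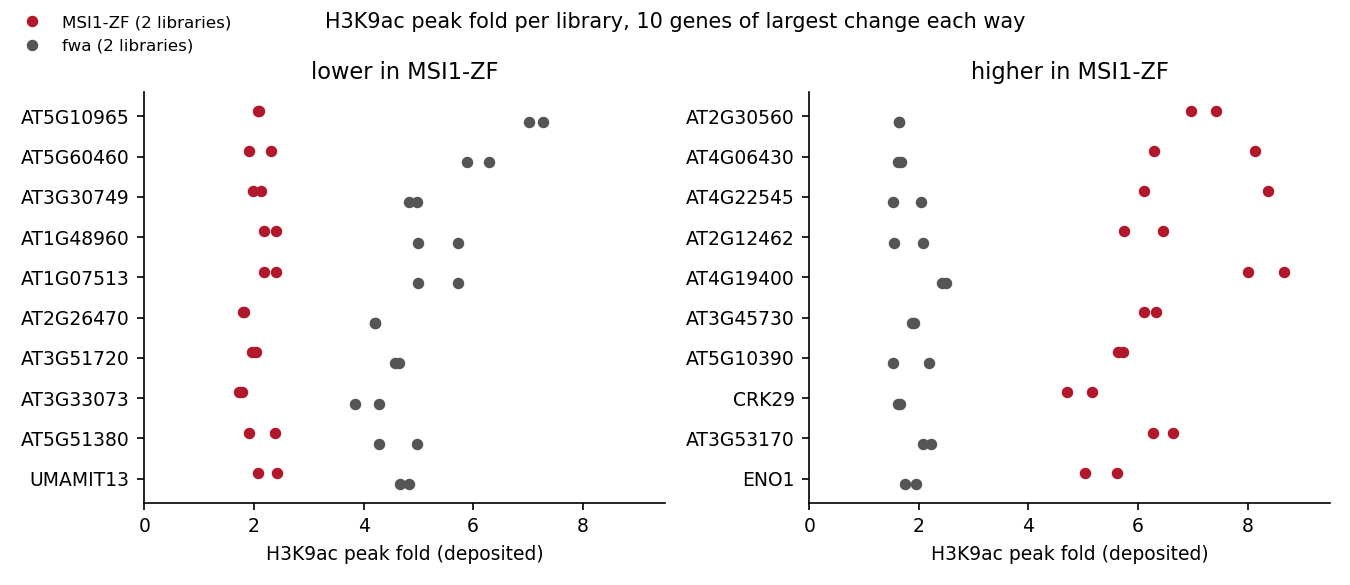
H3K9ac peak fold as deposited (horizontal axis) in each of the 2 MSI1-ZF and 2 fwa libraries for the 10 genes with the largest tested decrease (left panel) and increase (right panel); the upper row of points of each gene is MSI1-ZF and the lower row fwa. The groups do not overlap at any gene shown, as at AT5G60460 with 2.32 and 1.92 in MSI1-ZF and 5.88 and 6.30 in fwa; the genes were chosen by this difference.

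H3K14ac was lower at AT3G13437, a gene of unknown function 6688 bp from a ZF site, with folds of 2.22 and 1.83 in MSI1-ZF, against 5.38 and 5.64 in fwa (log2 −1.39 ± 0.14 SE, limma adjusted p = 0.0113). AT4G02485, an oxygenase family gene with a ZF site at 343 bp, had H3K14ac folds of 2.11 and 1.88 in MSI1-ZF, against 4.86 and 4.28 in fwa (log2 −1.12 ± 0.14 SE, limma adjusted p = 0.0298), and lost H3K9ac, with 4.51 and 3.66 in fwa. AT1G49360, an F-box gene with a site at 462 bp, had 1.77 and 2.08 in MSI1-ZF, against 4.12 and 4.20 in fwa (log2 −1.03 ± 0.16 SE, limma adjusted p = 0.0459). WLIM2a, a LIM domain gene 3666 bp from a site, had 2.11 and 2.19 in MSI1-ZF, against 4.87 and 4.21 in fwa (log2 −0.99 ± 0.15 SE, limma adjusted p = 0.0459), and its H3K9ac folds were 4.73 and 5.56 in MSI1-ZF, against 4.37 and 4.08 in fwa (limma adjusted p = 0.705). The H3K14ac difference at WLIM2a was −0.508 (limma adjusted p = 0.546) when any overlapping base counted and −0.104 (limma adjusted p = 0.891) in the window around the gene start, and its adjusted p ranged between 0.0339 and 0.891 over all alternatives. The peaks at AT4G02485 and AT1G49360 also covered AT4G02482 and AT1G07547, with the same folds. The tests of the fold rested on all 4 libraries. Without MSI1-ZF replicate 1, 5 genes were lower and 5 higher for H3K9ac, and 23 lower and 3 higher for H3K14ac. Without MSI1-ZF replicate 2, fwa replicate 1 or fwa replicate 2, limma called 0 genes for either mark, with 1812 to 1978 genes for H3K9ac and 1200 to 1521 genes for H3K14ac at an unadjusted p under 0.05.

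Set against the other fusions directly, H3K9ac was lower in MSI1-ZF than in HDA6-ZF at 92 of 17045 genes (0.54%) and higher at 48 (0.282%), and H3K14ac was lower at 5 of 17165 genes (0.0291%) and higher at 2 (0.0117%, limma, Benjamini-Hochberg). The change in MSI1-ZF differed from the change in EYFP-ZF at 11 genes for H3K9ac, 5 with the more negative change in MSI1-ZF (0.0301% of 16607) and 6 with the more positive one (0.0361%). For H3K14ac 1 gene differed (0.00571% of 17523).

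The genes that lost acetylation carried the Polycomb mark more often than genes with both acetylation marks do. In fwa H3K27me3 lay over 38.6% of the 70 genes that lost both marks, 31.9% of those that lost H3K9ac only and 22.6% of those that lost H3K14ac only, against 4.25% of the 17236 genes with both marks in fwa and 16.1% of all genes. Genes that gained marks also stood above the 4.25%: 16.0% for both marks, 16.0% for H3K9ac only and 25.8% for H3K14ac only. By the rule these genes lacked the gained mark in both fwa libraries, so that the 17236 are not a like reference for them. Beside the 16.1% of all genes, the shares at genes that gained both marks or H3K9ac only were no higher. The share at genes that gained H3K14ac only was higher, as were those of the 3 classes of losses. H3K4me3, a mark of active starts, lay over 34.3% of the genes that lost both marks, against 89.2% of the 17236. At genes that gained both marks, H3K9ac only or H3K14ac only its shares were 8.0%, 18.1% and 5.56%. H3K27ac lay over 77.1% of the 70, against 98.7%, H3K36me3 over 22.9%, against 81.0%, and RNA polymerase II with phosphorylated serine 5 over 21.4%, against 58.2%.

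H3K27me3 was gained in both MSI1-ZF libraries at 157 genes (0.414% of all genes). Of the 569 genes that lost H3K14ac 19 were among them (3.34%), which is 12.1% of the 157, and 12 of the 19 started near a ZF site. Of the 236 genes that lost H3K9ac 8 were among them (3.39%, 5.10% of the 157), against 3 of the 470 genes that gained H3K9ac and 3 of the 248 that gained H3K14ac. The 4 genes that lost both acetylation marks and gained H3K27me3, named after their values were seen, were GRF11, a 14-3-3 protein gene with a ZF site 3 bp from its start, FDM1, a factor of RNA-directed DNA methylation with a site at 395 bp, and the lncRNA genes AT3G01225 and AT4G07385. GRF11 had fwa folds of 1.97 and 2.43 for H3K9ac and 2.14 and 1.94 for H3K14ac. FDM1 had 1.83 and 1.94 for H3K9ac and 2.72 and 1.71 for H3K14ac in fwa. HMA3, a vacuolar heavy metal transporter gene with a site at 527 bp, had H3K14ac folds of 2.66 and 1.62 in fwa and none in MSI1-ZF, and had no H3K9ac peak in any library.

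Both marks were gained at 50 genes, which is 10.6% of the genes that gained H3K9ac and 20.2% of those that gained H3K14ac. They differed in make-up from the genes that lost both: 23 of the 50 were protein-coding (46.0%), against 54 of the 70 (77.1%), 16 were pseudogenes, against 5, and 4 started near a ZF site. Of these 50 genes 22 lay on chromosome 2, and 18 lay between 2 and 4 Mb of that chromosome, a stretch that holds 612 genes (1.61% of all). That stretch was picked after the values were seen. AT2G06002, an ncRNA gene there, had H3K9ac folds of 7.77 and 7.62 and H3K14ac folds of 3.19 and 3.21 in MSI1-ZF and no peak in the fwa libraries of this comparison. An H3K9ac peak was also called over it in HDA6-ZF replicate 2 (2.85) and in fwa replicate 1 of the EYFP-ZF set (2.42). The pseudogene AT2G06590 had H3K9ac folds of 4.56 and 4.14 and H3K14ac folds of 3.49 and 2.91 in MSI1-ZF and no peak of either mark in HDA6-ZF or fwa.

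Over the whole stretch 65 and 62 genes had H3K9ac in MSI1-ZF, against 46 and 47 in fwa, and 69 and 71 genes had H3K14ac in MSI1-ZF, against 48 and 47 in fwa. HDA6-ZF had 45 and 47 genes with H3K9ac and 46 and 46 with H3K14ac, which is at the fwa level. EYFP-ZF had 46 and 46 genes with H3K9ac and 49 and 46 with H3K14ac, against 45 and 45, and 47 and 48, in its own fwa libraries. Both MSI1-ZF libraries thus stood above all 8 other libraries of each mark.

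**Figure D5:**
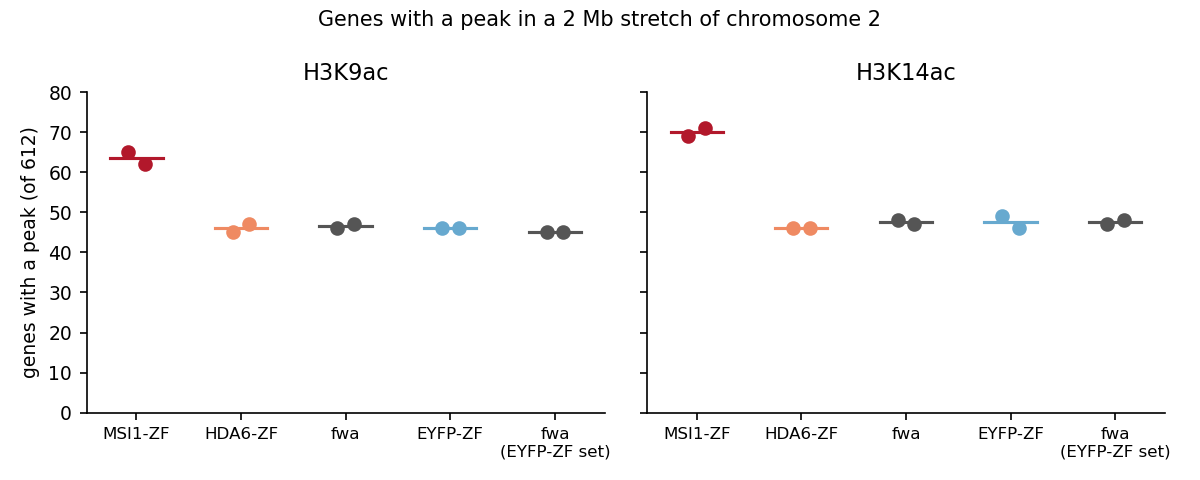
Number of the 612 genes between 2 and 4 Mb of chromosome 2 that had a peak (vertical axis) in each library (points; lines are the means of the 2 libraries) for H3K9ac and H3K14ac. Both MSI1-ZF libraries have 62 to 71 marked genes and every other library has 45 to 49; the stretch was picked after its values were seen.

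Few regulators of flowering and chromatin lost or gained a mark, and few of all genes did. Of 23 flowering regulators 15 had H3K9ac in both MSI1-ZF libraries and 14 in both fwa libraries, none lost it and SMZ gained it. None of the 14 tested passed the threshold (median log2 −0.09, against 0.00239 over all genes tested, with 9 of 14 below 0 and the lowest at −0.57). For H3K14ac MAF4 lost it, FT and SMZ gained it and none of 16 tested passed. Over all genes the shares were 0.623% lost and 1.24% gained for H3K9ac, and 1.5% lost and 0.654% gained for H3K14ac. MAF4, a relative of the flowering repressor FLC with a ZF site at 383 bp, had H3K14ac folds of 2.03 and 1.69 in fwa and no peak in MSI1-ZF. FT, the florigen gene, had H3K14ac folds of 1.82 and 1.84 in MSI1-ZF and no peak in fwa, and SMZ, an AP2-type repressor of flowering, had H3K9ac folds of 2.75 and 2.28 and H3K14ac folds of 1.98 and 1.74 in MSI1-ZF and no peak in fwa. These were weak peaks, and 1 HDA6-ZF library also had the H3K14ac peak at FT (1.98) and at SMZ (1.80). FLC kept both marks, with H3K9ac folds of 2.02 and 1.94 in MSI1-ZF, against 2.27 and 2.18 in fwa (limma adjusted p = 0.413).

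Of 19 genes for MSI1, its relatives and the subunits of its complexes, FAS1 gained both marks (1.24% and 0.654% of all genes did for H3K9ac and H3K14ac) and none lost either. FAS1, which encodes the large subunit of CAF-1, had H3K9ac folds of 3.4 and 2.65 and H3K14ac folds of 2.86 and 2.26 in MSI1-ZF and no H3K9ac peak in these fwa libraries. An H3K14ac peak covered 149 bp of FAS1 in fwa replicate 1, which is 1 bp under the overlap asked for. HDA6-ZF had both marks over FAS1 as well (H3K9ac 3.13 and 3.6), and 1 fwa library of the EYFP-ZF set had H3K9ac there (1.59). The median log2 difference over the list was 0.04 for H3K9ac (13 tested, 5 below 0) and 0.02 for H3K14ac (12 tested, 5 below 0), with none past the threshold. MSI1 itself had H3K9ac folds of 4.23 and 4.16 in MSI1-ZF, against 4.85 and 5.12 in fwa (limma adjusted p = 0.213), although signal from the transgene copy and from the gene cannot be told apart. HDA6 had H3K9ac folds of 2.27 and 2.45 in MSI1-ZF, against 3.36 and 3.2 in fwa (limma adjusted p = 0.131), and H3K14ac folds of 2.07 and 1.86 in MSI1-ZF, against 3.4 and 3.55 in fwa (limma adjusted p = 0.146). The covered length of HDA6 went the other way. H3K9ac peaks covered 2074 and 1979 bp of it in MSI1-ZF, against 801 and 804 bp in fwa. For H3K14ac the lengths were 1351 and 1449 bp, against 908 and 803 bp.

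Of 27 acetyltransferase and other deacetylase genes none lost or gained either mark, and the medians were −0.03 for H3K9ac (20 tested) and −0.01 for H3K14ac (22 tested). Of 23 floral, meristem and seed regulators that Polycomb is known to repress, 1 had H3K9ac in both libraries of either group, and 2 had H3K14ac in both MSI1-ZF libraries, against 5 in both fwa libraries. SEP1, a floral organ gene with a ZF site at 339 bp, lost H3K14ac, with folds of 1.73 and 1.81 in fwa. All counts of lost and gained genes in this paragraph stand beside the shares over all genes. These were 0.623% lost and 1.24% gained for H3K9ac, and 1.5% lost and 0.654% gained for H3K14ac. Of 14 photosynthesis genes LHCA1 lost H3K14ac and LHCB1.2 gained H3K9ac, with medians of −0.04 for H3K9ac and −0.17 for H3K14ac over 11 tested each. Of 12 clock genes PRR9 lost H3K14ac, with folds of 1.60 and 1.64 in fwa, of 20 defence and stress genes PR5 gained H3K9ac, with folds of 2.88 and 1.97 in MSI1-ZF, and of 11 constitutive genes none lost or gained a mark.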

How the data were processed

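The report rests on deposited peak lists. Per the labels and the study's methods, the authors' upstream tools were Bowtie2 2.1.0 (TAIR10, reads with 1 perfect match), SAMtools 1.9 for removing duplicate reads and MACS2 2.1.1 for peaks, with 1 list per library. The lists hold each peak's summit fold enrichment (a linear ratio) and the −log10 of its q-value, as the authors' caller wrote them. The control of the histone calls is not given in the sources used here. FLAG peaks were called against fwa, and peaks common in Col-0 FLAG libraries were removed. Lists hold no read counts, so depth and counting error are unknown. A called peak is present or absent at the caller's threshold, and weak peaks change calls most easily. The H3 libraries were not analysed here. Of other deposited values (unit other), the sequence contexts that the authors wrote with BSMAP 2.90 served only to check the build, and all 427 entries compared equalled the reference.

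Peaks were assigned to RefSeq TAIR10.1 genes (150 bp overlap). For genes with a peak in all libraries of a fit, log2 of the strongest peak's fold was quantile normalized and tested with limma 3.58.1 (R 4.3.3, eBayes with trend, Benjamini-Hochberg over all genes tested, adjusted p under 0.05), since the values are ratios and not counts. The script was tested on simulated data. Single values were compared by exact permutation tests (scipy 1.17.1). Python 3.11.15, numpy 2.4.6, pandas 2.3.3 and matplotlib 3.10.9 were used. A ZF site was a FLAG region of at least 4-fold at the summit listed first for it, near meaning its middle within 1000 bp of a gene start. Other marks came from the H3K27me3 lists of MSI1-ZF and fwa and from fwa lists of other data sets.

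Alternatives were the overlap (1 bp, or 200 bp before to 500 bp after the start), a −log10 q of at least 5, the normalization, absent peaks set to the lowest fold, limma without trend, a 1.5-fold minimum, a replicate block, the ZF fold (2) and distance (500 bp), and leaving out each library. Named genes were FWA, the members of 8 fixed lists counted in the text (11 of 12 constitutive genes were matched), per mark and direction the 10 genes lost or gained with the highest fold percentile and the 10 of largest tested change, and the 15 and 10 such genes that lost and gained both marks. Members and lists were chosen with earlier results of these data known. Genes with sequence letters printed, and those with an H3K27me3 gain, were added after their values were seen.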

Additional observations from a re-analysis of the deposited data

Results flagged for a closer look

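The change of the H3K9ac fold in MSI1-ZF differed from the change in EYFP-ZF, each against its own fwa libraries, at 11 genes, and the H3K14ac change differed at 1 gene (interaction term, limma, Benjamini-Hochberg adjusted p under 0.05). The direct comparison of MSI1-ZF with HDA6-ZF passed the same threshold at 140 genes for H3K9ac and 7 genes for H3K14ac. Each log2 value that follows is the change in MSI1-ZF minus the change in EYFP-ZF for H3K9ac.

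At 6 genes both sets of fwa libraries had folds on the same side, high or low. The difference was negative at AT5G60460 (−1.64), at AT1G48960 and AT1G07513 (−1.51, 1 shared peak) and at the pseudogene AT3G30749 (−1.54). At AT3G30749 the H3K9ac folds were 1.98 and 2.13 in MSI1-ZF, against 4.83 and 4.98 in fwa, and 5.87 and 5.75 in EYFP-ZF, against 5.23 and 5.08 in its fwa libraries. It was positive at AT4G19400 (2.0), where the folds were 8.67 and 8.01 in MSI1-ZF, against 2.43 and 2.50 in fwa, and 2.48 and 2.17 in EYFP-ZF, against 3.06 and 2.31 in its fwa libraries. ENO1 (1.59) had 5.61 and 5.02 in MSI1-ZF, against 1.95 and 1.76 in fwa, and 2.24 and 1.92 in EYFP-ZF, against 2.1 and 2.49 in its fwa libraries.

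At the other genes the fwa libraries of the 2 data sets differed from each other. AT2G12462 (3.08) had 6.45 and 5.74 in MSI1-ZF, against 1.55 and 2.08 in fwa, and 2.64 and 2.26 in EYFP-ZF, against 5.36 and 7.28 in its fwa libraries. AT4G06430 (2.09) had 1.62 and 1.67 in the fwa libraries of MSI1-ZF and 7.25 and 7.79 in those of EYFP-ZF. AT4G22545 (2.49), AT4G21865 (1.95) and AT4G15810 (−1.28) were of the same kind, with folds in the fwa libraries of MSI1-ZF, against those of EYFP-ZF, of 2.03 and 1.52 against 8.54 and 9.09, of 2.13 and 3.43 against 5.21 and 5.56, and of 4.41 and 4.61 against 1.9 and 2.00. SRF1, a receptor-like kinase gene, was the 1 gene for H3K14ac (−1.59), with 2.38 and 2.62 in MSI1-ZF, against 4.37 and 4.39 in fwa, and 4.83 and 4.86 in EYFP-ZF, against 2.92 and 2.46 in its fwa libraries. The part of the data set in these differences was not tested.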

How the results depend on the processing

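Leaving out each library in turn gave 321 to 449 genes for H3K9ac lost, 629 to 780 for H3K9ac gained, 907 to 1066 for H3K14ac lost, 431 to 742 for H3K14ac gained and 113 to 140 for both marks lost, since presence then had to hold in 3 libraries. The genes past the limma threshold then numbered 0 to 5 for H3K9ac lower, 0 to 5 for H3K9ac higher, 0 to 23 for H3K14ac lower and 0 to 3 for H3K14ac higher. With absent peaks set to the lowest fold, limma called 99 genes lower and 101 higher for H3K9ac, and 47 lower and 15 higher for H3K14ac. With a 1 bp overlap 6 genes were higher for H3K9ac and 17 lower for H3K14ac. With the window around the gene start 0 were higher for H3K14ac (738 at an unadjusted p under 0.05). With the stricter peak threshold 4 were higher for H3K9ac, and 0 lower and 0 higher for H3K14ac (646 and 703 at an unadjusted p under 0.05). Median centring and cyclic loess each gave 6 lower for H3K14ac. The other alternatives run kept these counts within 1.5 times. The comparisons with HDA6-ZF and EYFP-ZF were fitted at 1 setting only.

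The median log2 difference of genes near a ZF site stayed negative under each alternative run. It was −0.0302 for H3K9ac and −0.0158 for H3K14ac with sites of at least 2-fold, −0.0643 and −0.0268 within 500 bp, and −0.0697 and −0.0095 with median centring. Reading the fold at a region's highest summit, an alternative added after seeing the data that takes in the FWA promoter, gave −0.0514 and −0.0225. Of single genes AT5G51380 turned to 0.254 with the window around the start, AT3G45730 to −0.021 with a 1 bp overlap, ENO1 to −0.099 and −0.101 and AT3G01335 to −0.07 and −0.072 with the 1 bp overlap and the window. The cause was not tested. Besides leaving out libraries, the alternatives for the named genes of the fit kept direction and call 236 times and lost the call 33 times. With 1 library left out the call was kept 21 times and lost 110 times, while the 26 lower H3K9ac genes all stayed lower, 20 to 23 of them at least 2-fold.

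The replicate numbers only name the libraries, as same-numbered MSI1-ZF and fwa libraries did not deviate together (r = −0.018 for H3K9ac and 0.0081 for H3K14ac across genes). With the number as a replicate block, limma called 34 genes lower and 23 higher for H3K9ac and 14 lower and 1 higher for H3K14ac. The counts of genes lost and gained do not depend on the block. Limits are the 2 libraries per group, the unknown depth, the unstated control of the histone calls, ZF sites from another fusion in floral tissue, and calls of presence that rest mostly on weak peaks.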
